A study of Saccharomyces cerevisiae with 4 samples.

Results

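The cytosolic Hsp70 chaperones of budding yeast (Saccharomyces cerevisiae) and their cofactors were followed in poly(A) RNA of a wild-type strain (WT) and of a strain labelled T4V. The group was chosen by gene name and holds SSA1, SSA2, SSA3, SSA4, SSB1, SSB2, SSE1, SSE2, SSZ1 and FES1, which are 10 of the 7126 genes of the deposited table. T4V stands for valine in place of threonine 4 in the repeated heptads that make up the C-terminal domain of RNA polymerase II. The series asks how this residue bears on transcription and on chromatin remodelling with the histone variant Htz1. Each genotype had 2 libraries, and nothing in the labels says that they came from separate cultures, so p-values measure only the spread between these libraries. The strain background, the way the mutant gene was carried, the medium, the temperature and the growth phase are not given in the sources used here. Gene-level RPKM cannot reveal the base change itself, so each library's genotype was taken as labelled.

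Hsp70 proteins bind short unfolded stretches of other proteins and release them in a cycle driven by ATP. J-domain proteins speed the ATP step, and nucleotide exchange factors open the Hsp70 for the next round. In yeast the Ssa proteins are the general cytosolic Hsp70s. SSA1 and SSA2 are expressed in growing cells, whereas SSA3 and SSA4 are known as genes induced by heat and other stress. The Ssb proteins sit on the ribosome and bind nascent chains, together with Ssz1, an Hsp70 relative in the ribosome-associated complex. Sse1 and Sse2 are Hsp110 proteins that act as exchange factors, and Fes1 is an exchange factor of another fold.

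The close pairs SSA1 with SSA2 and SSB1 with SSB2 come first as sequences, because their likeness limits how reads can be told apart. Over 1920 aligned coding bases SSA1 and SSA2 were identical at 96.8%, with a longest identical run of 383 bases. SSB1 and SSB2 were identical at 97.4% of 1842 bases, with a longest identical run of 563 bases. Of all stretches of 50 bases in the coding sequence, 42.1% were found once in the genome for SSA1, 41.8% for SSA2 and 56.8% for SSB1 and for SSB2. For each of the other 6 genes this share was 100%. SSA3 and SSA4 were identical at 77.5% of aligned coding bases and SSE1 and SSE2 at 71.7%. The lines below give the 60 bases of each close pair that differ most, on the coding strand of the R64 assembly, with differing bases in capitals. The SSA1 stretch is at chrI:139712-139771 and the SSA2 stretch at chrXII:95766-95825, both on the minus strand, and they differ at 9 bases. The SSB1 stretch is at chrIV:45312-45371 and the SSB2 stretch at chrXIV:253306-253365, both on the plus strand, and they differ at 11 bases.
SSA1: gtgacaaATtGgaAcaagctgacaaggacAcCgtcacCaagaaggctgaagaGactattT
SSA2: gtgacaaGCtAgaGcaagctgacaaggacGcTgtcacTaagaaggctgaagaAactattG
SSB1: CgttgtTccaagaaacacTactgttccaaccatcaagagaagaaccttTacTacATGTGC
SSB2: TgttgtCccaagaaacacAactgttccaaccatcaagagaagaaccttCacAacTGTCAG

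How the authors placed reads that fit both copies is not given in the sources used here, so values of a single copy of these pairs are uncertain, and the sum of a pair is given beside them. All 10 genes are annotated without introns in RefSeq, and no other RefSeq gene overlapped any of them. Levels are RPKM, reads scaled by gene length and library size, so they can be set side by side between genes. The libraries held 4070000 and 3655000 reads for WT library A and B and 3355000 and 4259000 for T4V library A and B, as recovered from the steps of the low values. The 10 genes took between 1.39% and 1.63% of the reads of a library. Intervals on read counts cover counting error only, because PCR copies were not marked by molecular identifiers.

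The family was dominated by SSA2, SSB1 and SSE1 in both genotypes, and the stress-induced genes were near its bottom. By mean RPKM over the 4 libraries the order ran SSA2 (2445), SSB1 (1800.3), SSE1 (1391), SSB2 (980.3), SSA1 (570.2), SSZ1 (544), FES1 (111), SSE2 (38.7), SSA3 (14.2) and SSA4 (10.7). Ranges over the libraries were separate between all neighbours in this order except SSA1 and SSZ1, of which SSA1 was the higher in 3 of 4 libraries. The gap between SSA3 and SSA4 was narrow, from 12.0 RPKM (SSA3, WT library A) to 11.7 (SSA4, T4V library B). Exact Poisson 95% intervals of these values overlapped, at 9.68 to 14.6 and 9.46 to 14.3. Among all 7126 genes, SSA2 ranked 63 and SSB1 88 by mean RPKM, and SSA3 and SSA4 ranked 4844 and 5070. The summed RPKM of the 10 genes was 8123 and 8629 in the WT libraries and 7376 and 7497 in the T4V libraries. Both T4V sums lay below both WT sums, and the mean fell by 11.2%. An exact permutation test over 2 against 2 libraries, 2-sided, gave p = 0.333, the smallest it can give.

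**Figure D1:**
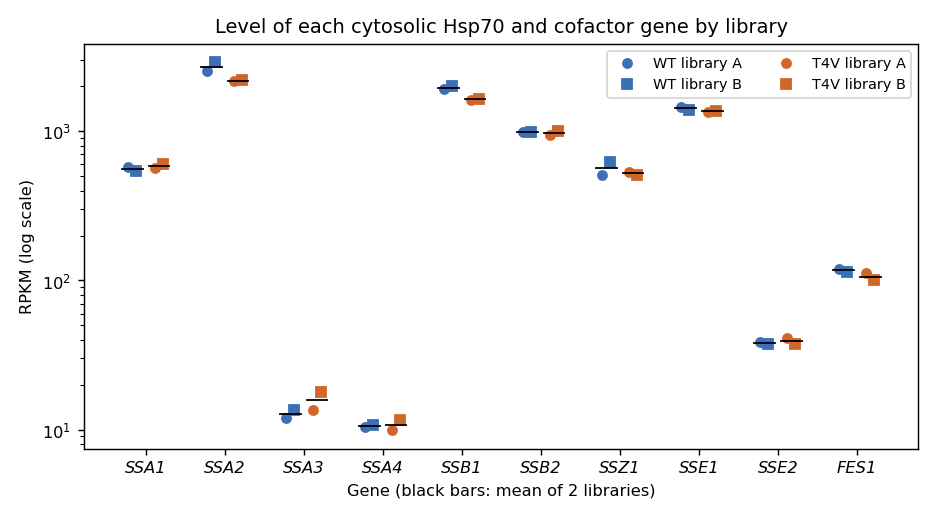
RPKM of each gene in the 2 WT and 2 T4V libraries on a log axis, with the mean of each genotype as a black bar. SSA2 is the highest, between 2179.9 and 2894, and SSA3 and SSA4 lie near 10, while the genotypes differ little on this scale.

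Of the 10 genes, 2 fell in T4V, SSA2 and SSB1, the most abundant member of each of the close pairs. The other 8 did not pass the test, and none was called higher. At p under 0.05 before adjustment the same 2 genes passed, and voom, a count model run on recovered reads, called 2 lower and 0 higher. The main test was limma on log2(RPKM + 1) over the 5935 genes that reached an RPKM of 1 in 2 or more libraries, with calls at a Benjamini-Hochberg adjusted p under 0.05. All 10 genes passed that filter. Of all genes tested, 17.9% were called, 11.7% as higher and 6.25% as lower, so 2 of 10 is near the share of calls among all genes. The 692 higher and 371 lower calls became 511 and 503 after median-of-ratios scaling and 453 and 448 after quantile normalization, and voom called 10.3% of genes lower. The median log2 fold change was -0.04 over the 10 genes and 0.07 over all genes tested. T4V and WT values did not overlap for 4 of the 10 genes, each with T4V below WT, against 62.0% of all genes tested in either direction and 23.4% with T4V below.

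SSA2 (YLL024C, chromosome XII, 95566 to 97485, minus strand) had 2515 and 2894 RPKM in the WT libraries and 2179.9 and 2190.1 in the T4V libraries. Both T4V values lay below both WT values, and the WT libraries differed from each other more than the T4V libraries did. The mean went from 2705 ± 268 to 2185 ± 7.19 RPKM (SD, n = 2 each). On the log2(RPKM + 1) scale it fell by 0.30 ± 0.08 (SE), with a 95% interval of -0.49 to -0.12 (limma adjusted p = 0.0383). The call was lost without WT library B (log2 fold change -0.20, limma adjusted p = 0.0667), without T4V library A (-0.30, 0.0903) and without T4V library B (-0.31, 0.0836), and it held without WT library A (-0.41). In bulk RNA, less RNA per cell and fewer cells that express the gene cannot be told apart.

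SSA1 (YAL005C, chromosome I, 139503 to 141431, minus strand) had 575 and 538 RPKM in the WT libraries and 564 and 603 in the T4V libraries. These ranges overlapped. Its log2 fold change was 0.07 with a 95% interval of -0.09 to 0.23, which leaves room for a change of up to 1.17-fold upwards (limma adjusted p = 0.521). SSA1 held 18.6% and 15.7% of the pair's RPKM in the WT libraries and 20.6% and 21.6% in the T4V libraries. Its share was higher in both T4V libraries, by 3.94 percentage points between the means (exact permutation test, 2-sided, p = 0.333, the smallest that 2 against 2 libraries can give). The difference was 2.46 points without WT library B and 5.42 without WT library A. The sum of the pair was 3091 and 3432 RPKM in WT and 2744 and 2793 in T4V. Its log2 fold change was -0.23 with a 95% interval of -0.39 to -0.07, and it did not pass the test (limma adjusted p = 0.0569), where 6.22% of genes were called lower in the fit with summed pairs. Voom called the sum lower with an adjusted p of 0.000448, where it called 10.3% of genes lower, and the fit without WT library A called it too (-0.31, limma adjusted p = 0.0150).

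The stress-induced SSA3 and SSA4 stayed low in both genotypes. SSA3 (YBL075C, chromosome II, 84499 to 86448, minus strand) had 12.0 and 13.5 RPKM in WT and 13.45 and 17.9 in T4V. T4V library B alone stood above the others, with 149 reads against 95, 96 and 88, and its exact Poisson 95% interval of 15.2 to 21.1 RPKM overlapped those of WT library B and T4V library A. The log2 fold change was 0.27 with a 95% interval of -0.17 to 0.72 (limma adjusted p = 0.356). It was 0.08 without T4V library B and 0.47 without T4V library A.

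SSA4 (YER103W, chromosome V, 364589 to 366517, plus strand) had 10.45 and 10.8 RPKM in WT and 9.89 and 11.7 in T4V. The T4V values lay on either side of the WT values. Its log2 fold change was 0.02, its 95% interval ran from -0.41 to 0.44 (limma adjusted p = 0.962), and the sign turned under median-of-ratios scaling (-0.04) and quantile normalization (-0.12). These intervals allow a rise of up to 1.64-fold for SSA3 and 1.36-fold for SSA4. With 64 to 149 reads per library, a change within these intervals could have gone without a call.

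SSB1 (YDL229W, chromosome IV, 44065 to 45906, plus strand) had 1909 and 2014 RPKM in the WT libraries and 1630.2 and 1648 in the T4V libraries. Both T4V values lay below both WT values by more than either genotype's libraries differed. The mean went from 1962 ± 74.8 to 1639 ± 12.4 RPKM (SD, n = 2 each). The log2 fold change was -0.26 ± 0.06 (SE), its 95% interval ran from -0.39 to -0.12, and the limma adjusted p was 0.0249. The call was lost without WT library B (log2 fold change -0.22, limma adjusted p = 0.0554), without T4V library A (-0.25, 0.0983) and without T4V library B (-0.27, 0.0805), and it held without WT library A (-0.30).

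SSB2 (YNL209W, chromosome XIV, 252059 to 253900, plus strand), whose protein does the same work at the ribosome, had 983 and 991 RPKM in WT and 942 and 1005 in T4V. The T4V values enclosed the WT values. Its log2 fold change was -0.02 with a 95% interval of -0.16 to 0.12 (limma adjusted p = 0.840). SSB1 held 66.0% and 67.0% of the pair's RPKM in WT and 63.4% and 62.1% in T4V. Its share was lower in both T4V libraries and the mean share fell by 3.76 percentage points (exact permutation test, 2-sided, p = 0.333, the smallest it can give). The sum of the pair was 2892 and 3006 RPKM in WT and 2572 and 2652 in T4V, a log2 fold change of -0.17 with a 95% interval of -0.31 to -0.04 (limma adjusted p = 0.0776). Voom called this sum lower as well, with an adjusted p of 0.00623.

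SSZ1 (YHR064C, chromosome VIII, 225525 to 227141, minus strand) had 511 and 618 RPKM in the WT libraries and 534 and 512 in the T4V libraries. WT library B stood alone above the other libraries. The log2 fold change was -0.10 with a 95% interval of -0.33 to 0.12 (limma adjusted p = 0.488), and it was 0.03 without WT library B.

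Among the exchange factors no gene passed the test. SSE1 (YPL106C, chromosome XVI, 350194 to 352275, minus strand), the main Hsp110 gene, had 1448 and 1397 RPKM in WT and 1349 and 1371 in T4V. Both T4V values were below both WT values, but the log2 fold change was -0.06 with a 95% interval of -0.20 to 0.07 (limma adjusted p = 0.463). SSE2 (YBR169C, chromosome II, 573915 to 575996, minus strand) had 38.7 and 37.5 RPKM in WT and 41.2 and 37.4 in T4V. Its groups overlapped, with a log2 fold change of 0.04 (95% interval -0.20 to 0.29, limma adjusted p = 0.811) that turned to -0.02 under median-of-ratios scaling and -0.01 under quantile normalization. SSE1 was the larger of this pair in every library, between 32.7-fold and 37.4-fold. FES1 (YBR101C, chromosome II, 443821 to 444693, minus strand) had 119 and 114 RPKM in WT and 112 and 101 in T4V. All T4V values lay below the WT values, with a log2 fold change of -0.14 and a 95% interval of -0.34 to 0.06 (limma adjusted p = 0.308). It was -0.064 without T4V library B and -0.21 without T4V library A.

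**Figure D2:**
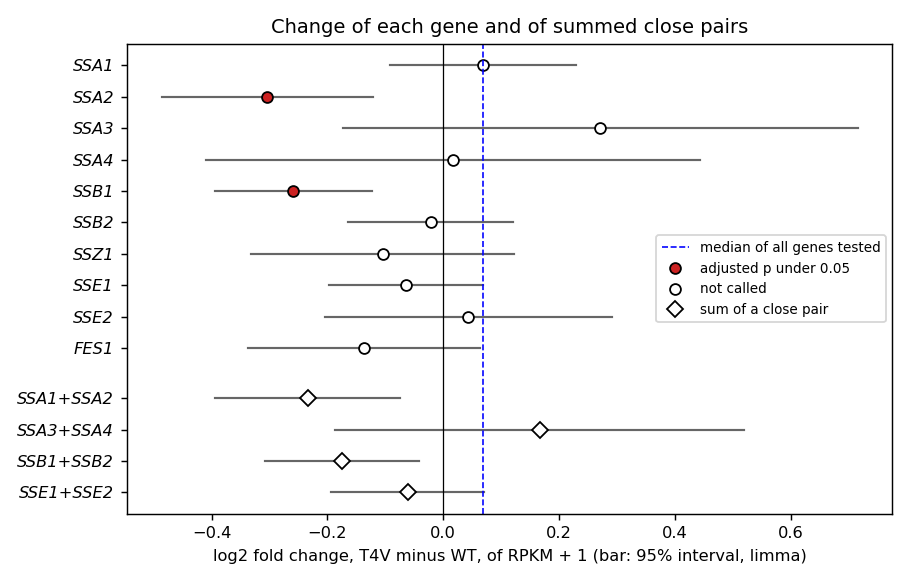
Log2 fold change of log2(RPKM + 1), T4V minus WT, with its 95% interval from limma, for the 10 genes (circles) and the summed close pairs (diamonds), red where the adjusted p was under 0.05. SSA2 and SSB1 are the red points at -0.30 and -0.26, and the summed pairs SSA1+SSA2 and SSB1+SSB2 lie at -0.23 and -0.17 without a call.

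The calls of SSA2 and SSB1 were close to the threshold. Over 13 alternatives the log2 fold change of SSA2 stayed between -0.41 and -0.20 and was called in 7, and that of SSB1 stayed between -0.32 and -0.18 and was called in 8. The plot of both genes against the processing shows the same for the summed pairs, which were called in 5 of 13 alternatives for SSA1+SSA2 and in 2 of 13 for SSB1+SSB2.

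**Figure D3:**
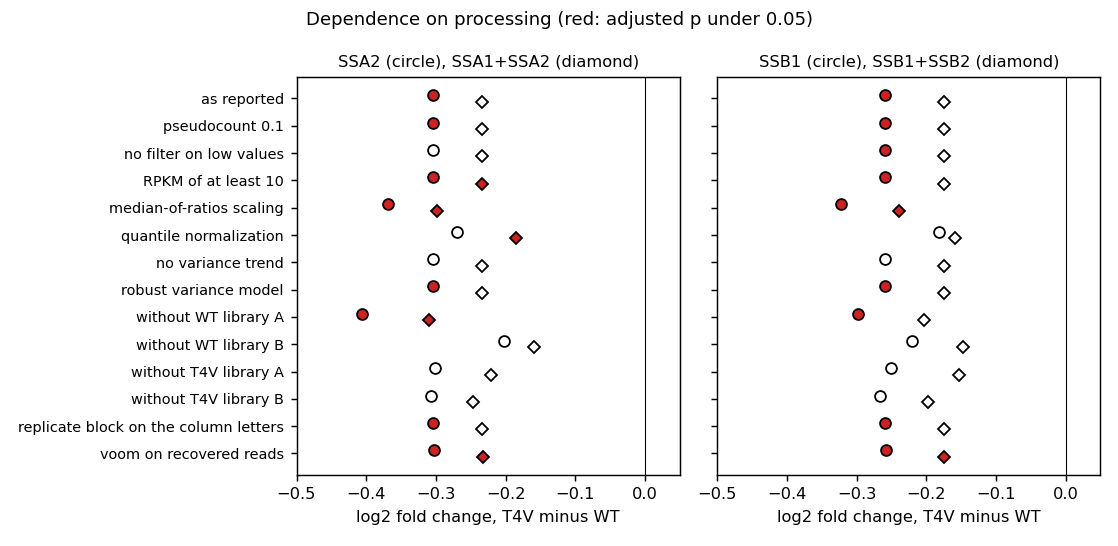
Log2 fold change, T4V minus WT, of SSA2 and SSB1 (circles) and of their summed pairs (diamonds) as reported and under each of 13 alternatives, red where the adjusted p was under 0.05. Every point is below 0, while the colour changes from setting to setting.

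The genes whose values ran closest to SSA2, by Euclidean distance of log2(RPKM + 1) less the WT mean over the 4 libraries among 5112 genes, were YPL191C, MKT1 and FAR8, at distances of 0.049, 0.053 and 0.057. Those closest to SSB1 were SHY1, YPR053C and CHD1, at 0.017, 0.021 and 0.030. With 4 libraries this likeness describes these libraries only. Among these neighbours of SSA2 and SSB1 only YPR053C was called (log2 fold change -0.25, limma adjusted p = 0.0375).

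Upstream sequences are shown for the SSA genes, because SSA1 and SSA2 encode near-identical proteins at different levels and SSA3 and SSA4 stayed low. Heat shock factor Hsf1 binds inverted repeats of GAA, and Msn2 and Msn4 bind the stress response element. In the 300 bases before each start codon, GAANNTTC and TTCNNGAA (each reads the same on both strands) and AGGGG (searched on both strands) were marked. The repeat letters can overlap one another. GAANNTTC or TTCNNGAA was present before 7 of the 10 genes and before 22.4% of 5987 protein-coding genes. For SSB2, counted among them, the only match lay close to the start codon, at bases 34 to 27 before it. AGGGG was present before 3 of the 10, SSA1, SSA4 and SSE2, and before 22.2% of all. SSA2 held 4 repeat matches and no AGGGG, and SSA1 held 3 repeat matches and 2 of AGGGG. SSA4 held 1 repeat match and 1 of AGGGG, and SSA3, SSB1 and SSZ1 held no match in this window. The SSA1 match that starts at base 141 lies outside the stretch shown. A match is a description of letters and not of binding. The lines below run 5′ to 3′ from base 300 to base 151 before the start codon on the R64 assembly, with matches in capitals, at chrI:141582-141731 (minus) for SSA1, chrXII:97636-97785 (minus) for SSA2, chrII:86599-86748 (minus) for SSA3 and chrV:364289-364438 (plus) for SSA4.
SSA1 upstream: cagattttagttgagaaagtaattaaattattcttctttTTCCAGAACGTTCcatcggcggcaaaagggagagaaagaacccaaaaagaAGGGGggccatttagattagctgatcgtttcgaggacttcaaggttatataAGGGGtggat
SSA2 upstream: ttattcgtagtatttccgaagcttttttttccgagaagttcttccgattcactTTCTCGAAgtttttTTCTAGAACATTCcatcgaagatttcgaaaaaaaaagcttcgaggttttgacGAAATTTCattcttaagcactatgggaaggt
SSA3 upstream: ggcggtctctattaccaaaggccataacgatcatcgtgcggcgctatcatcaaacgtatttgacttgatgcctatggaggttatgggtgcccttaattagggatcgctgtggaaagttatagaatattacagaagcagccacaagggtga
SSA4 upstream: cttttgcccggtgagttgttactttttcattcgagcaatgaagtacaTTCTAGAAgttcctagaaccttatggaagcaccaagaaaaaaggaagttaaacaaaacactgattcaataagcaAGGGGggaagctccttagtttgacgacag

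Genes that work with these Hsp70s were mixed, and limma without the variance trend called only AHA1 and HSP78 of the genes named from the lists. In the main fit 17.9% of all genes tested were called, 11.7% as higher and 6.25% as lower, with a median of 0.07. Of 12 genes for cytosolic J-domain proteins 1 was called, JJJ1, which acts in ribosome assembly. JJJ1 stood at 31.5 ± 1.66 RPKM in WT and 21.0 ± 1.23 in T4V (SD, n = 2 each). Its log2 fold change was -0.57 (limma adjusted p = 0.0214), and the call was lost without WT library B (-0.51) or T4V library B (-0.51). The median of this list was -0.01. Of 9 genes for the disaggregase, small heat shock proteins and partner proteins 3 rose and 2 fell, with a median of 0.21. The median was -0.016 without WT library A, and the genes that rose were 0 without T4V library A and 0 without T4V library B. The small heat shock protein gene HSP42 rose by 0.38 and fell short of a call without WT library B (0.31), T4V library A (0.36) or T4V library B (0.40) and after quantile normalization (0.29). STI1, which links Hsp70 to Hsp90, stood at 1077 ± 42.0 RPKM in WT and 828 ± 1.89 in T4V. It fell by 0.38 (limma adjusted p = 0.00781) and was called with each library left out in turn, but not without the variance trend (limma adjusted p = 0.0746). SNL1, a membrane-bound exchange factor gene, fell by 0.50 (limma adjusted p = 0.0451), with no call without WT library A (-0.41), without T4V library B (-0.36) or without a filter on low values (limma adjusted p = 0.0597).

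The list of 18 chaperone genes known as Hsf1 targets shared members with the lists above, among them HSP104, HSP42 and STI1, each called in both. Of these 18 genes, 3 rose and 3 fell, beside 11.7% of all genes tested called higher and 6.25% lower. The median of the list was -0.08, against 0.07 over all genes tested. The genes that rose were 1 without T4V library A and 1 without T4V library B. AHA1, an Hsp90 activator, stood at 461 ± 14.7 RPKM in WT and 278 ± 4.60 in T4V (SD, n = 2 each) and fell by 0.73 (limma adjusted p = 0.00117). HSP78, a mitochondrial disaggregase gene, rose from 170 ± 6.28 to 246 ± 1.77 RPKM, by 0.53 (limma adjusted p = 0.00422). AHA1 and HSP78 were called in all 13 alternatives. Of 4 stress transcription factor genes MSN4 alone rose, by 0.36, and the call was lost without any 1 library (0.33 to 0.39) and after median-of-ratios (0.30) or quantile scaling (0.31). It was also lost when low genes were kept in (limma adjusted p = 0.0547) or the letters A and B entered the fit as a block (0.0608).

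Most general stress genes were called higher in the main fit, but not in every alternative. Of 26 genes known as Msn2 and Msn4 targets 17 rose and none fell by limma, where 20 were higher and 0 lower at p under 0.05 before adjustment. Over all genes tested 11.7% were called higher and 6.25% lower, with a median of 0.07. Voom called 20 higher and 0 lower. The median was 0.49, and it lay between 0.45 and 0.60 with each library left out in turn. DDR2 rose by 1.63, SPI1 by 1.15 and ALD3 by 1.09, although ALD3 lost its call without WT library B (0.88), T4V library A (1.00) or T4V library B (1.19) and after quantile normalization (0.89). The genes that rose were 15 after median-of-ratios scaling, 12 after quantile normalization and 7 without the variance trend. Like the other lists, this set was written with earlier results of these libraries known, so none of them is independent evidence of its direction.

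Genes of organelle Hsp70s and nascent-chain chaperones were called in 1 of 5 and 2 of 17 cases, beside 17.9% of all genes tested. Of 5 organelle Hsp70 genes SSQ1, which serves iron-sulphur cluster assembly in mitochondria, rose by 0.45 (median 0.12). That call was lost without any 1 library (0.43 to 0.48) and after quantile normalization (0.38). Of 17 genes for the nascent polypeptide-associated complex, prefoldin and the CCT chaperonin, 1 rose and 1 fell, the prefoldin genes PFD1 at 0.34 and PAC10 at -0.35 (median 0.01). PFD1 lost its call without WT library A (0.29), T4V library A (0.26) or T4V library B (0.42) and after median-of-ratios scaling (0.28) or quantile normalization (0.29). It was also not called without a filter on low values (limma adjusted p = 0.0512) or by voom (adjusted p = 0.0952). PAC10 lost its call without WT library B (-0.29), T4V library A (-0.30) or T4V library B (-0.40).

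SSB1 and SSB2 are known to be regulated along with ribosomal protein genes in yeast. Of 138 genes with ribosomal protein names 17 fell and none rose by limma, with 51 lower and 2 higher at p under 0.05 before adjustment. Voom called 43 lower and 1 higher. The list includes RPP1, which does not encode a ribosomal protein and was not called (log2 fold change -0.19). Over all genes limma called 6.25% lower and voom 10.3%, and the median was 0.07. The median of the ribosomal protein genes was -0.12, against -0.26 for SSB1 and -0.02 for SSB2. RPL21B, RPL24B and RPL26A had log2 fold changes of -0.55, -0.50 and -0.39, and most such genes have a close copy with which reads may be shared. RPL21B lost its call after quantile normalization (-0.38). Median-of-ratios scaling gave 40 ribosomal protein genes that fell, limma without the variance trend gave 0, and the fits without T4V library A and B gave 11 and 9.

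**Figure D4:**
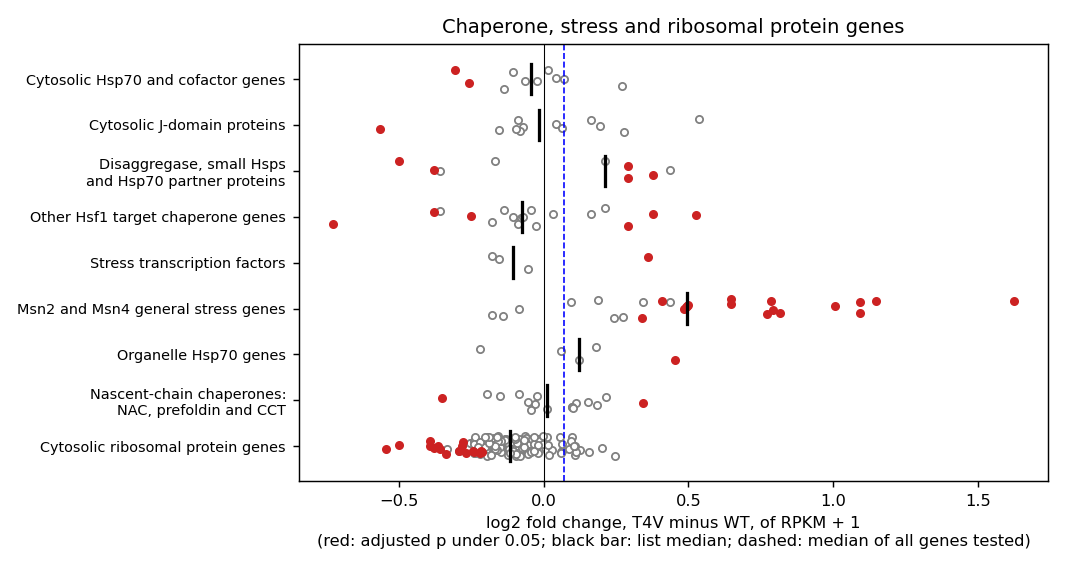
Log2 fold change of log2(RPKM + 1), T4V minus WT, for each gene of the Hsp70 group and of 8 related lists, red where the limma adjusted p was under 0.05, with the list median as a black bar. The Msn2 and Msn4 genes lie mostly above 0 with a median of 0.49, whereas the Hsp70 group has its median at -0.04.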

How the data were processed

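Poly(A) RNA of 2 WT and 2 T4V libraries was measured. The submitters' processing notes name Bowtie2 and the sacCer3 build. Per the file headers, the authors deposited RPKM per gene and library. The counting program, annotation, strand setting and treatment of reads with several matches are not given in the sources used here. Column names give the genotype with a number and a letter that match no sample title, so libraries are called A and B after those letters. The sacCer3 build corresponds to R64, from which RefSeq coordinates and sequences were taken, with 6207 of 7126 genes matched.

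Low RPKM values were whole multiples of 1 read. Of low values 99.1% to 99.4% came out within 0.1 of a whole read, and reads were recovered from these steps. A count of 0 would allow 3 reads, or 0.704 to 0.894 RPKM in a gene of 1 kb.

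limma 3.58.1 in R 4.3.3 was fitted on log2(RPKM + 1) with a variance trend. The added 1 understates changes of low genes. Fold changes are T4V minus WT. Pairs were summed and refitted. The fit was tested on simulated data. Coding sequences were aligned with Biopython 1.88. Members and lists were chosen with earlier results of these data known. All members are named, and up to 3 called genes of each list with the largest change. Alternatives changed the pseudocount, filter, scaling, variance model, threshold and libraries used, one ran voom on recovered reads, and one, added after seeing the data, had the letters as a block.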

Additional observations from a re-analysis of the deposited data

How the results depend on the processing

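Directions of SSA1, SSA2, SSA3, SSB1, SSE1 and FES1 were the same under all 13 alternatives, and calls of SSA2 and SSB1 depended on them. SSA2 was not called without a filter on low values (-0.30, limma adjusted p = 0.0513), after quantile normalization (-0.27, 0.0573) or without the variance trend (-0.30, 0.157), nor was SSB1 after quantile normalization (-0.18, 0.0793) or without the trend (-0.26, 0.134). The genes of the group called lower were thus 1, 0 and 0 under these settings. SSA1+SSA2 gained a call with an RPKM of at least 10 required (-0.23), after median-of-ratios scaling (-0.30), after quantile normalization (-0.18) and with voom (-0.23), and SSB1+SSB2 after median-of-ratios scaling (-0.24) and with voom (-0.17). SSA4 turned to -0.042 and -0.12, and SSE2 to -0.019 and -0.011, after median-of-ratios scaling and quantile normalization.

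Leaving out each library in turn gave ranges of -0.41 to -0.20 for SSA2, -0.30 to -0.22 for SSB1, -0.31 to -0.16 for SSA1+SSA2, -0.093 to 0.13 for SSA4, -0.068 to 0.025 for SSB2, -0.025 to 0.11 for SSE2 and -0.24 to 0.033 for SSZ1, with 0 to 2 genes of the group called lower. A lone library left in a genotype was assumed to vary like the other genotype.

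Over all genes, 692 higher and 371 lower (1063) became 511 and 503 after median-of-ratios scaling, 453 and 448 after quantile normalization, 265 and 134 (399) without the trend and 1016 and 585 (1601) with voom, and 364 at an adjusted p under 0.01. Without 1 library they were 666 to 973, with 404 to 652 higher and 250 to 321 lower. Over the 8 lists, genes called higher were 14 after quantile normalization, 8 without the trend and 13 to 21 without 1 library. Those called lower were 48 after median-of-ratios scaling, 1 without the trend, 52 with voom and 11 to 28 without 1 library. In the main fit the 8 lists held 24 genes called higher and 23 called lower. Ribosomal protein genes were 17 of these 23, and 40 of the 48 after median-of-ratios scaling. The columns carry no replicate number of the labels. The letters A and B recur in both genotypes, but nothing says that they pair libraries, and the difference of A and B had a correlation of -0.015 between genotypes across 5935 genes. A replicate block on these letters, chosen after seeing the data, gave 744 higher and 393 lower calls (1137) and kept the calls of SSA2 (limma adjusted p = 0.0266) and SSB1 (0.0428), while SSA1+SSA2 (0.0682) and SSB1+SSB2 (0.155) stayed uncalled. The cause of these shifts was not tested. With 2 libraries per genotype, a gene without a call may still have changed by any amount within its stated interval.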
